A study of Mus musculus with 8 samples.

Results

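The core circadian clock of the mouse kidney was examined through 10 genes: Arntl (also called Bmal1), Npas2, Clock, Per1, Per2, Per3, Cry1, Nr1d1, Nr1d2 and Dbp. They were chosen by name, and each was measured by the probe set that carries its symbol alone, taking the brightest where there were several. Of these 10 genes, 9 were measured among 19938 genes in all, and Npas2 was not analysed here. Total RNA came from dissected renal cortex of male C57Bl6J mice aged 10 weeks, with 4 arrays from mice labelled as littermate wild type (WT) and 4 from littermates labelled as SPAK (Stk39) KO. SPAK is a kinase that phosphorylates the NaCl cotransporter of the distal convoluted tubule. Both genotypes had free access to feed with 0.32% NaCl and 1% KCl. Which part of Stk39 was disrupted, and the hour at which tissue was taken, are not stated in the labels. The stated design asked which genes might together limit renal salt loss once SPAK is missing. For the clock genes the comparison asks whether markers of circadian phase moved together between genotypes, as they could if the groups had been sampled at different times of day.

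As background, the circadian clock is a loop of transcription factors. ARNTL pairs with CLOCK or NPAS2, binds E-boxes and turns on the Per, Cry, Nr1d and Dbp genes. PER and CRY proteins then switch off ARNTL and CLOCK, and the NR1D receptors repress Arntl, so that in mouse peripheral tissues Arntl, Npas2, Clock and Cry1 transcripts are highest around the end of the night and early day (dawn side), whereas those of Nr1d1, Nr1d2, Dbp and the Per genes are highest between midday and dusk (day side). A later or earlier sampling time can therefore move the dawn side and the day side in opposite directions. It need not do so at every hour, since genes of the same side do not all peak together. In the kidney the clock is known for daily rhythms of sodium transport, and Per1 also responds directly to glucocorticoids, aldosterone and cAMP signals.

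The data were log2 expression values made with the RMA method (1 unit is a doubling) on 1-colour Affymetrix arrays. Stk39 was lower on all SPAK KO arrays, at 8.36, 8.51, 8.60 and 8.11 on WT 1 to 4 and 7.21, 6.98, 6.79 and 7.10 on SPAK KO 1 to 4 (−1.38 ± 0.11, SE; limma adjusted p = 5.8e-04). The array medians over all probe sets were 6.13 to 6.19 in WT and 6.09 to 6.12 in SPAK KO. The labels name 8 mice, but some arrays were far more alike than others. This was counted as the number of genes more than 0.4 apart, out of the 6297 whose mean exceeded 8. A WT and a SPAK KO array were apart at 131 to 393 genes, and the 5 WT pairs other than WT 2 with WT 3 at 119 to 228. Any 2 SPAK KO arrays (6 pairs), however, were apart at 1 to 10 genes and WT 2 and WT 3 at 3 genes. WT 2 and WT 3 were therefore counted as 1 sample in every mean ± SD (n = 3), SPAK KO levels are given without an SD, and p-values from the 8 arrays measure a spread that may in part be technical. Differences are from the fit over all 8 arrays unless stated, so they can depart from the gap to a WT mean with n = 3. All 4 proximal tubule markers were well represented in the labelled cortex (values of 11.0 to 13.8), and the 3 adrenal markers lay between 4.31 and 5.51. In whole tissue, fewer cells of a type and less RNA per cell cannot be told apart.

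Per1 was higher in SPAK KO and was the 1 core clock gene of the 9 measured whose difference passed the test, with 0 lower and 8 not passing. Across all genes, 2.08% passed the same test (1.39% as higher and 0.682% as lower). Per1 encodes a repressor subunit of the loop. Its values were 7.51, 8.18, 8.50 and 7.73 on WT 1 to 4 and 8.87, 8.95, 8.92 and 8.93 on SPAK KO 1 to 4. Every SPAK KO array lay above every WT array, while the WT arrays spread over 0.99 and the SPAK KO arrays over 0.08. The WT level was 7.86 ± 0.43 (SD, n = 3), and the difference of 0.93 ± 0.18 (SE) corresponds to 1.91-fold (limma over 8 arrays, Benjamini-Hochberg adjusted p = 0.0266). That call was lost without WT 2 (adjusted p = 0.0534) and without SPAK KO 1, 2, 3 or 4 (0.084, 0.0715, 0.0712 and 0.0823), with differences of 0.92 to 1.00. With arrays that agree closely counted once, which leaves 3 WT samples and 1 SPAK KO sample, the difference was 1.05. With 1 SPAK KO sample, that fit gives the size of the difference and no test of it.

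The upstream promoter of Per1 is shown because this gene had the largest genotype difference among the core clock genes. The sequence is the 250 bases before its upstream RefSeq start (chr11:69098699-69098948, plus strand, GRCm38.p6), 5′ to 3′, with capitals marking an E-box (CACGTG, the site of ARNTL and CLOCK) and TGACG, the core of a cAMP response element.
Per1: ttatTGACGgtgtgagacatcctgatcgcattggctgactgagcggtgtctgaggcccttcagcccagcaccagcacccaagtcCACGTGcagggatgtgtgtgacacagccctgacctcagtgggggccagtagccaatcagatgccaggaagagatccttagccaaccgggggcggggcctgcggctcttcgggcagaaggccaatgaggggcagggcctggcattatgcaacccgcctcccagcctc
Windows of 300 bases (250 before and 50 after a start) were found for 9 of the 10 genes, Npas2 included, and Per2 had none. These 9 genes had 13 windows, and a gene was counted if any of its windows held a match. An E-box lay in the windows of 2 of the 9 genes, Per1 and Cry1, and in 7.15% of all 32851 RefSeq windows, searching both strands. TGACG also lay in the windows of 2, again Per1 and Cry1, and in 20.8% of all windows. The full cAMP response element TGACGTCA, which contains TGACG, was in 0 of 9 (1.79% of all windows). A match describes letters in a window and not a bound site.

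Per2 and Per3, the other Period genes measured, did not share the difference of Per1. Per2, a repressor whose transcript peaks near dusk, read 7.08, 7.74, 7.82 and 7.62 on WT 1 to 4 and 7.66, 7.57, 7.69 and 7.64 on SPAK KO 1 to 4. Per3, a Period gene with a milder role in timekeeping, read 7.13, 7.71, 7.86 and 7.53 against 7.61, 7.59, 7.64 and 7.56. For both genes all SPAK KO arrays lay inside the WT range, WT 1 was the lowest array and WT 3 the highest. The differences were 0.07 ± 0.14 (SE; 95% interval −0.23 to 0.38; adjusted p = 0.801) for Per2 and 0.04 ± 0.13 (−0.24 to 0.33; adjusted p = 0.880) for Per3, neither of which passed limma. Without WT 1 their signs turned, to −0.09 and −0.10. The difference of Per1 minus that of Per2 or Per3 was not tested.

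The Per3 promoter is shown because it held a D-box, the site of DBP, TEF and HLF, 2 times. The sequence covers the 250 bases before its start (chr4:151044666-151044915, minus strand, GRCm38.p6), with D-boxes in capitals.
Per3: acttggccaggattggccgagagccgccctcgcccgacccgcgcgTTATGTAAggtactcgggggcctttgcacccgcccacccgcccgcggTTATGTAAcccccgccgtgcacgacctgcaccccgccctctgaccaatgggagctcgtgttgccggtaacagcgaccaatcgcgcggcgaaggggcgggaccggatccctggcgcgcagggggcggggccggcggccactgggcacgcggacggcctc
A D-box (TTATGTAA or TTACGTAA, both strands) lay in the window of 1 of the 9 genes with windows and in 1.06% of all windows.

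Nr1d1 and Nr1d2 encode the REV-ERB receptors, which bind haem and repress Arntl. Nr1d1 read 11.22, 11.36, 11.31 and 11.12 on WT 1 to 4 and 11.55, 11.54, 11.52 and 11.46 on SPAK KO 1 to 4. Its groups did not overlap, as was so for 2 of the 9 genes, Per1 and Nr1d1, and for 12.6% of all genes (6.9% with SPAK KO above WT). The difference of 0.27 ± 0.06 (SE; 95% interval 0.14 to 0.40; 1.21-fold) did not pass at an adjusted p of 0.0512 in limma. It did pass with arrays centred on their median (0.33, adjusted p = 0.0248), with genes of a mean under 6 left out (0.27, 0.0236) and with trended, robust variance (0.27, 0.0073), and in none of the 8 fits that left out 1 array (0.0581 to 0.145). Nr1d2 read 9.93, 10.40, 10.37 and 10.12 against 10.42, 10.31, 10.35 and 10.39. Here the SPAK KO arrays sat at the level of WT 2 and WT 3, above WT 1 and WT 4 (difference 0.16 ± 0.10, adjusted p = 0.382). The 250 bases before the Nr1d1 start (chr11:98775378-98775627, minus strand, GRCm38.p6) held the E-box variant CACGTT on the opposite strand, in capitals.
Nr1d1: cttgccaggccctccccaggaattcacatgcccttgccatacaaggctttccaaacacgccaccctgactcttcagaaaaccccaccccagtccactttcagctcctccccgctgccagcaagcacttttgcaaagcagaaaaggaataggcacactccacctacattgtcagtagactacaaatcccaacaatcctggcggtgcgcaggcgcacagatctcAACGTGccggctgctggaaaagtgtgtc
That variant lay in the windows of 2 of the 9 genes with promoter windows, Nr1d1 and Cry1, and in 4.68% of all windows.

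Dbp, a transcription factor gene driven directly by ARNTL and CLOCK, varied widely in WT and little in SPAK KO. WT 1 to 4 gave 9.20, 10.21, 10.14 and 9.69, and SPAK KO 1 to 4 gave 10.07, 10.04, 10.04 and 10.12. All SPAK KO values fell inside the WT range, just below WT 2 and WT 3. The WT level was 9.69 ± 0.49 (SD, n = 3) and the difference 0.25 ± 0.18 (SE; 95% interval −0.16 to 0.66; limma adjusted p = 0.484).

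On the activator side, Arntl showed the reverse order of the WT arrays. It read 6.78, 5.69, 5.94 and 6.54 on WT 1 to 4 and 6.22, 6.19, 6.14 and 6.14 on SPAK KO 1 to 4. WT 1 and WT 4 were the high arrays, WT 2 and WT 3 the low ones, and the SPAK KO arrays lay between them. The mean difference was −0.06 ± 0.20 (SE; 95% interval −0.51 to 0.38; limma adjusted p = 0.884), and it turned positive without WT 1 (0.12) or without WT 4 (0.04). Clock, the partner of ARNTL, whose transcript cycles little in many tissues, read 9.62, 9.45, 9.44 and 9.60 against 9.40, 9.46, 9.42 and 9.45. WT 1 and WT 4 were again the high WT arrays, over a span of 0.18 (difference −0.10 ± 0.06, adjusted p = 0.382). Cry1, the repressor that peaks latest in the cycle, was the dimmest of the 9 genes. It read 6.02, 5.86, 5.84 and 5.89 against 5.67, 5.84, 5.99 and 5.77, and its SPAK KO arrays spread over 0.32, more than the 0.18 of WT (difference −0.08 ± 0.07, adjusted p = 0.556). No detection call comes with these values, so a dim probe set such as that of Cry1 has no stated floor. A 30-base stretch just after the downstream Arntl start (chr7:113207530-113207559, plus strand, GRCm38.p6) is shown with the core of the element bound by ROR activators and REV-ERB repressors (TAGGTCA) in capitals.
Arntl: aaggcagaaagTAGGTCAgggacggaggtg
That core lay in a window of 1 of the 9 genes with promoter windows and in 2.61% of all windows.

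**Figure D1:**
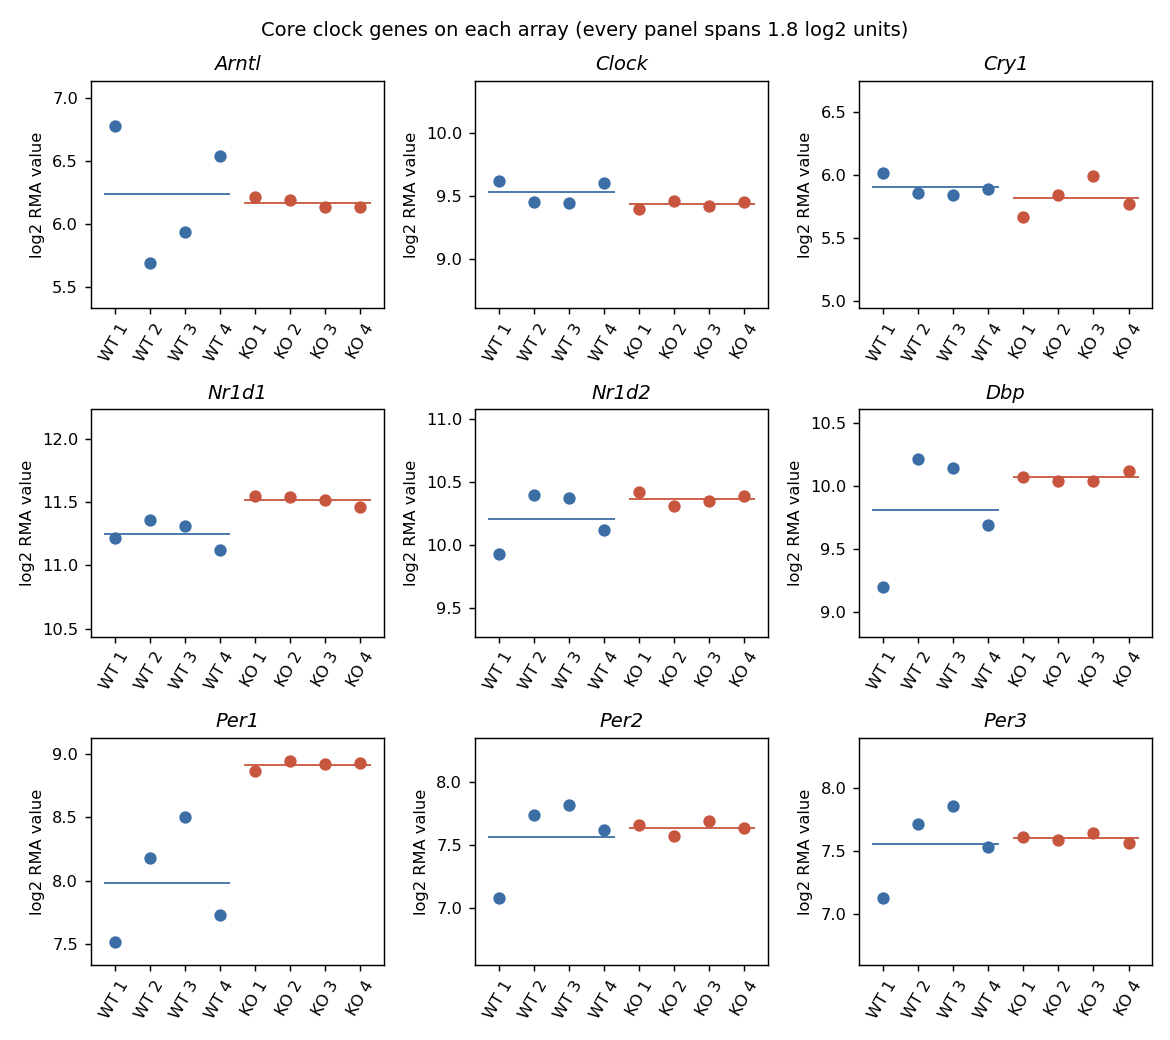
Log2 RMA values (y axis) of the 9 core clock genes measured on each of the 8 arrays (x axis; blue WT, red SPAK KO), with lines at the mean of each group of 4 arrays. Per1 and Nr1d1 have every SPAK KO array above every WT array, and for Arntl, Dbp, Per2 and Per3 the SPAK KO arrays lie within the wide WT range.

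For 8 of the 9 genes the WT arrays spanned more than the size of the genotype difference, Nr1d1 being the exception. The span from the lowest to the highest WT array was 0.18 to 1.09, with a median of 0.73, whereas over all genes the median WT span was 0.22. A WT span of 0.5 or more was found for 5 of the 9 genes and for 6.51% of all genes. Only 0.246% of all genes had a WT span as large as that of Arntl, 0.296% one as large as that of Dbp and 0.316% one as large as that of Per1. Clock and Cry1 were unremarkable by this measure, since 65.6% and 64.1% of genes spanned as much. Among the SPAK KO arrays the median span was 0.08 for the core clock genes and 0.17 for all genes. The WT span exceeded the SPAK KO span for 8 of the 9 genes, Cry1 being the exception, and for 64% of all genes.

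The phase genes, grouped with earlier results of these data known, were then read as 2 sides of the cycle. To the measured core genes were added Nfil3, a repressor on the dawn side, and Tef, Hlf, Ciart, Bhlhe41 and Usp2 on the day side, giving 4 dawn-side and 11 day-side genes. On group means the 4 dawn-side genes were all below 0 (median −0.09) and the 11 day-side genes all above 0 (median 0.17), while 45.8% of all genes were above 0. Of these 15 differences only that of Per1 passed, and genes of one loop measured on the same arrays are not independent of each other. The signs held with each of the other array scalings. They also held with WT 2 and WT 3 averaged into 1 sample, where the medians were −0.16 (dawn side) and 0.24 (day side). With arrays centred on their median, however, 65.5% of all genes were above 0 and the dawn-side median was −0.03. The signs also depended on the WT arrays. Without WT 1, 3 of 4 dawn-side and 7 of 11 day-side genes kept their sign, with Arntl, Per2, Per3, Tef and Hlf turned. Without WT 4, Arntl alone turned.

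**Figure D2:**
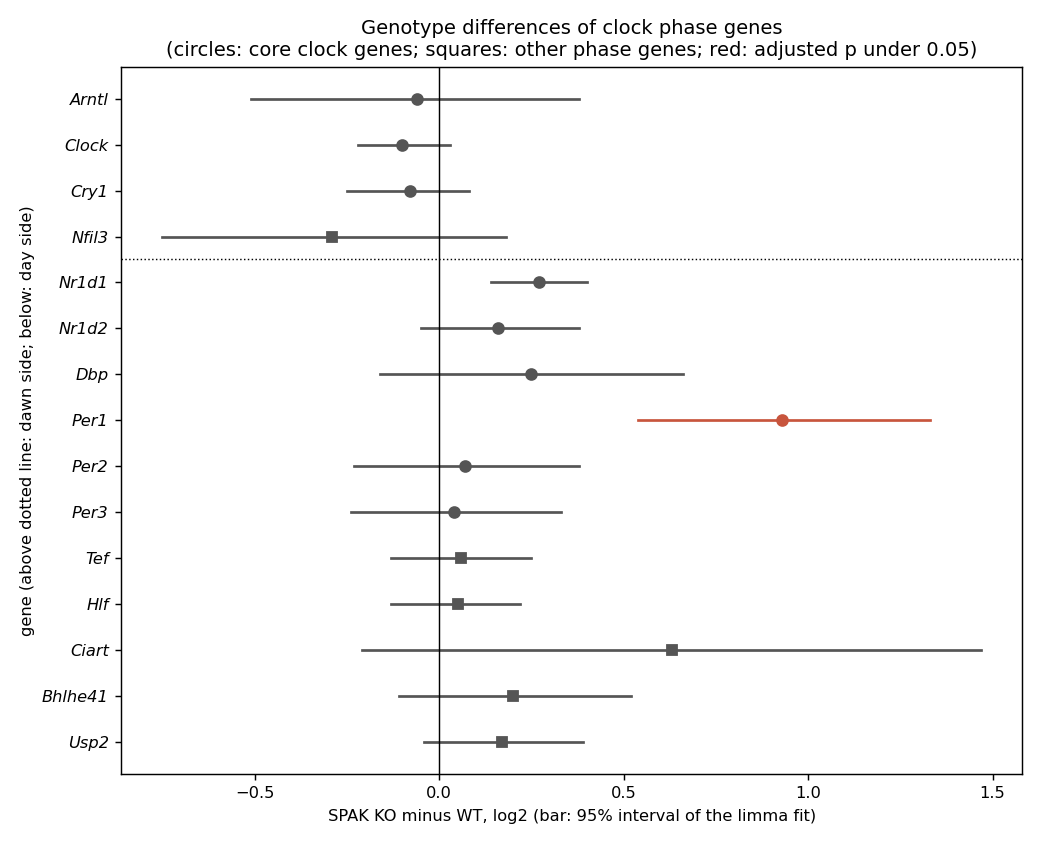
SPAK KO minus WT on the log2 scale (x axis) for 4 dawn-side and 11 day-side genes (y axis), with bars for the 95% interval of the limma fit over 8 arrays. All dawn-side points are left of 0 and all day-side points right of it, and of the 15 only Per1 (0.93, red) had an adjusted p under 0.05.

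WT 1 stood at the dawn end of the WT arrays. It was the highest WT array for 4 of 4 dawn-side genes and the lowest for 10 of 11 day-side genes, Nr1d1 being the exception. For Clock its margin over WT 4 was small (9.62 against 9.60). Of all 19938 genes, WT 1 was the highest WT array for 6461 and the lowest for 5449. WT 2 or WT 3 was the lowest for 4 of 4 dawn-side and the highest for 10 of 11 day-side genes, Hlf being the exception. Over all genes, WT 2 or WT 3 was the lowest for 9063 and the highest for 8797. The widest of the phase genes was Ciart, a repressor of ARNTL and CLOCK. It read 7.29, 9.21, 9.30 and 8.0 on WT 1 to 4 and 9.06, 9.09, 9.06 and 9.12 on SPAK KO 1 to 4. Its WT span of 2.01 was matched by 0.0301% of all genes, and its difference of 0.63 ± 0.38 (SE) did not pass limma (adjusted p = 0.389). A second, dimmer Ciart probe set read 7.10, 8.08, 7.89 and 6.78 against 7.76, 7.70, 7.78 and 7.68, and there WT 4 was lowest. Nfil3 mirrored it at 7.10, 6.04, 6.29 and 6.94 against 6.38, 6.09, 6.29 and 6.46 (−0.29 ± 0.21, adjusted p = 0.484). The promoters of these opposed genes are shown because they carry different clock elements: Ciart (chr3:95882229-95882478, minus strand) held 3 E-boxes and Nfil3 (chr13:52981040-52981289, minus strand) the TAGGTCA core on the opposite strand, each in capitals in the 250 bases before the start (GRCm38.p6).
Ciart: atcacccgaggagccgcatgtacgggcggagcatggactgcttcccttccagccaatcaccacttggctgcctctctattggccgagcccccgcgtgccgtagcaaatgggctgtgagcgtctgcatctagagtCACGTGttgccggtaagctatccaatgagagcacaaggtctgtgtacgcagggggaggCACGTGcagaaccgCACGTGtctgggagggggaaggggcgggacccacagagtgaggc
Nfil3: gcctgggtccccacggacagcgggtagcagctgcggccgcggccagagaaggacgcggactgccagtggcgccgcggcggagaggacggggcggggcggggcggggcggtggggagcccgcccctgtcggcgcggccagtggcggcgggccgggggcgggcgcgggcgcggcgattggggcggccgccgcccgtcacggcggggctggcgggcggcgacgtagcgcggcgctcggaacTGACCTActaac

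**Figure D3:**
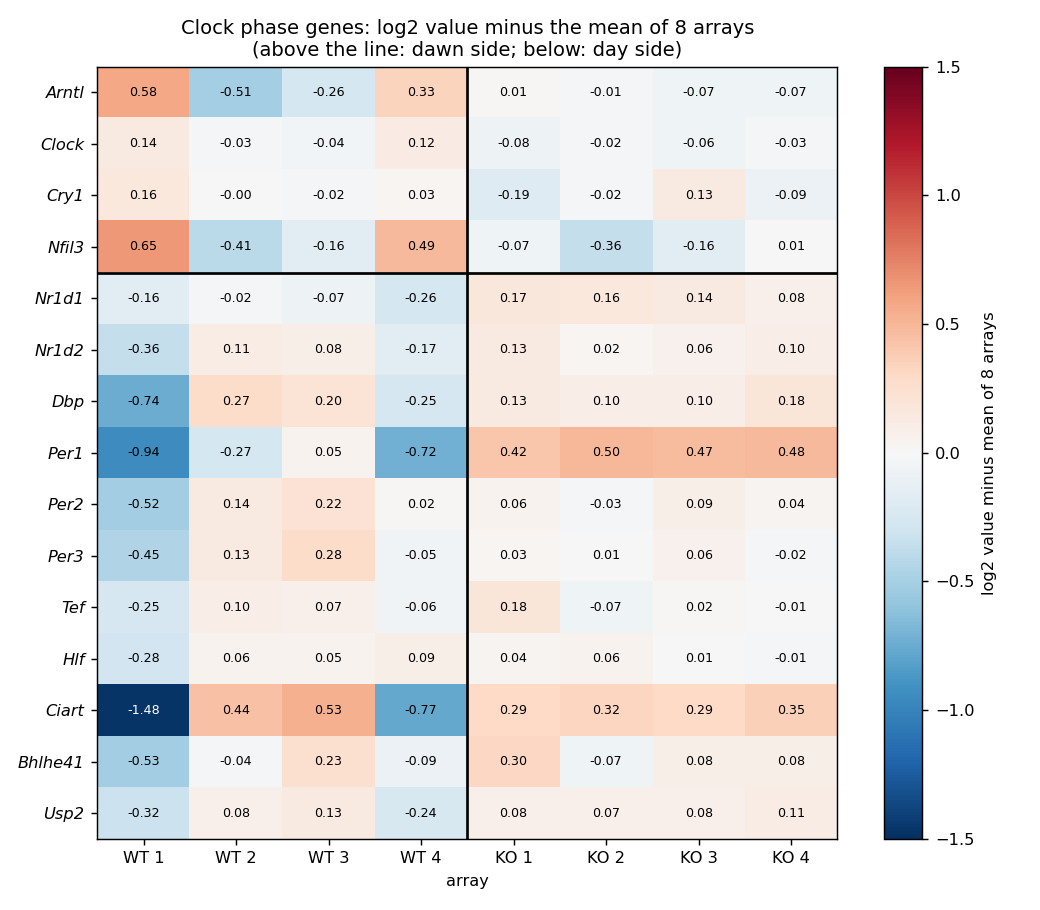
Log2 value minus the mean of the 8 arrays (colour and printed number) for dawn-side genes (above the horizontal line) and day-side genes (below it) on each array (columns; WT left, SPAK KO right of the vertical line). WT 1 is positive for all 4 dawn-side genes and negative for all 11 day-side genes, and the SPAK KO columns resemble each other.

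Set against each WT sample in turn, the SPAK KO mean gave different answers. Against WT 1, all 4 dawn-side genes were lower in SPAK KO (median −0.40) and all 11 day-side genes higher (median 0.47), with Arntl at −0.61, Dbp at 0.86, Per2 at 0.56 and Nr1d2 at 0.43. Against WT 4, the 4 dawn-side genes were again lower (median −0.27) and 10 of 11 day-side genes higher (median 0.25), with Arntl at −0.37 and Dbp at 0.38 but Per2 at 0.02 and Per3 at 0.07. Against the mean of WT 2 and WT 3, the dawn side was split, 2 higher (Arntl at 0.36 and Nfil3 at 0.14) and 2 slightly lower (Clock at −0.01 and Cry1 at −0.03). On the day side 9 of 11 genes were lower (median −0.03), with Dbp at −0.11, Ciart at −0.17, Per2 at −0.14 and Per3 at −0.18. The 2 day-side genes that remained higher in that comparison were Per1 at 0.58 and Nr1d1 at 0.19. Of all 19938 genes, the SPAK KO mean was above WT 1 for 9027 and above WT 4 for 9847. It was above the mean of WT 2 and WT 3 for 9319. Within the phase groups, chosen with earlier results of these data known, the markers agreed on a common displacement of SPAK KO from WT 1. With 1 day-side gene apart, they also agreed on one from WT 4. From WT 2 and WT 3 the differences were mostly small, and most had the sign opposite to those from WT 1. Not all markers agreed there: Per1 and Nr1d1 stayed higher, and Clock and Cry1 stayed lower by values near 0. These are differences from single WT samples and carry no test. An effect of sampling time and one of genotype cannot be told apart from them.

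**Figure D4:**
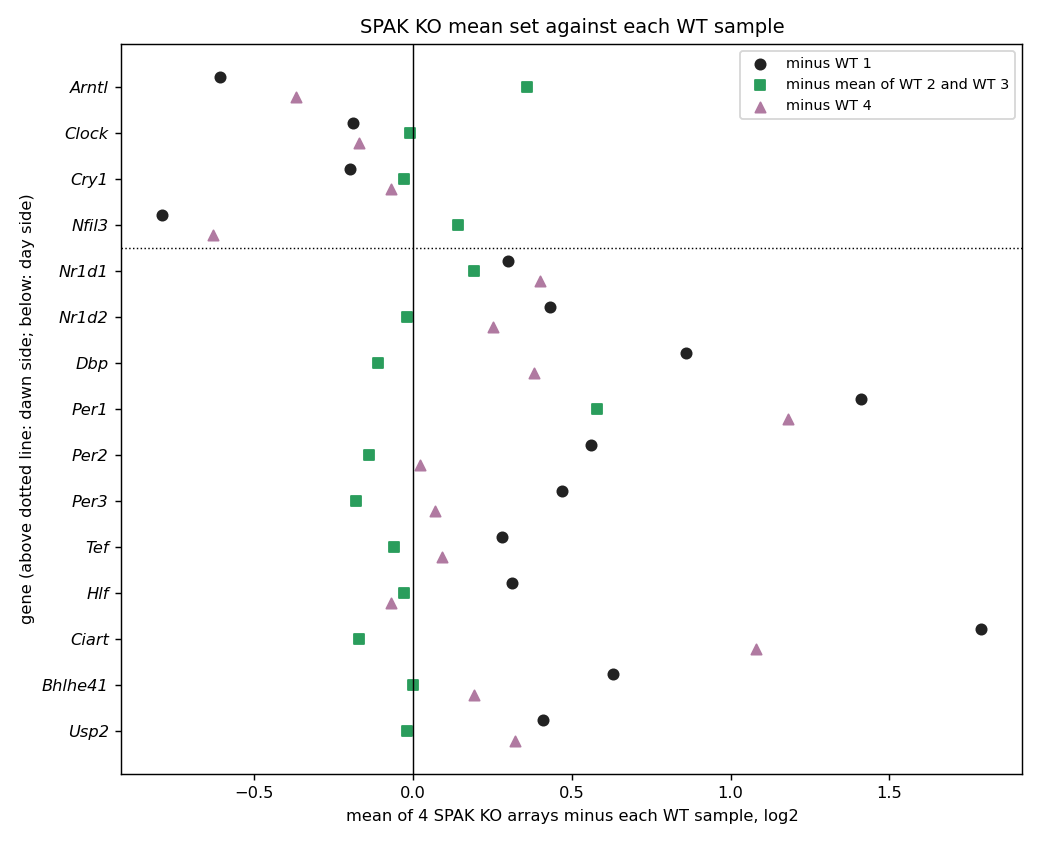
Mean of the 4 SPAK KO arrays minus each WT sample on the log2 scale (x axis) for dawn-side and day-side genes (y axis); circles stand for WT 1, squares for the mean of WT 2 and WT 3, and triangles for WT 4. The squares lie between −0.18 (Per3) and 0.19 (Nr1d1), apart from Per1 at 0.58 and Arntl at 0.36, whereas the circles and most triangles lie left of 0 for the dawn side and right of 0 for the day side.

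Beyond the core genes, 1 of 10 measured clock repressors and transcription factors rose, with 0 lower (all genes: 1.39% higher and 0.682% lower). This was Bhlhe40, an E-box-binding repressor that is also induced by many extracellular signals. Its values of 8.96, 8.80, 8.77 and 9.08 in WT and 9.52, 9.44, 9.53 and 9.50 in SPAK KO did not overlap (0.59 ± 0.07, SE; 1.51-fold; limma adjusted p = 0.0042). The call held in all 8 fits that left out 1 array (adjusted p 0.0015 to 0.0236). Bhlhe41, a close relative of Bhlhe40, gave 0.20 ± 0.14 (adjusted p = 0.464), with SPAK KO arrays at 5.91 to 6.28 and WT arrays at 5.45 to 6.21. Of 8 clock protein kinases and ubiquitin ligases 0 were called and 1 had an unadjusted p under 0.05, as did 19.1% of all genes. Fbxl21, a ligase subunit for CRY proteins, and Usp2, a deubiquitinase, gave 0.18 ± 0.08 (adjusted p = 0.243) and 0.17 ± 0.10 (0.354). Of 8 output genes 0 were called and 2 had an unadjusted p under 0.05. Pdk4, an inhibitor of pyruvate oxidation that also responds to fasting, gave 1.04 ± 0.35 (adjusted p = 0.147). Without WT 1, Pdk4 passed limma (1.48, adjusted p = 1.2e-04). Tspo, a mitochondrial outer membrane protein gene, gave 0.20 ± 0.05 (adjusted p = 0.0820) and passed with median centring, with dim genes left out and with trended, robust variance (0.0307, 0.0366 and 0.0211). Of 5 measured renal genes linked to Per1, 0 were called and 2 had an unadjusted p under 0.05, Scnn1a, the ENaC alpha subunit, at 0.25 ± 0.06 (adjusted p = 0.0861) and Slc12a3, the NaCl cotransporter, at −0.14 ± 0.05 (adjusted p = 0.183). Scnn1a passed under the same 3 settings as Tspo (0.0440, 0.0460 and 0.0229) and without WT 4 (0.29, 0.0460).

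Genes induced by signals to which Per1 also responds were examined beside it. Of 9 measured glucocorticoid-induced genes, 3 rose, 0 fell and 6 did not pass, with a median of 0.29 over the list and −0.01 over all genes. For this list and those below, the shares over all genes were 1.39% called higher and 0.682% called lower. Dusp1, a phosphatase of MAP kinases, rose by 0.67 ± 0.08 (adjusted p = 0.0045), Sgk1, a kinase that promotes sodium uptake, by 0.50 ± 0.09 (0.0209) and Errfi1, a feedback inhibitor of EGF receptor signalling, by 0.30 ± 0.05 (0.0152). Dusp1 passed in all 8 fits that left out 1 array, Sgk1 and Errfi1 in 4 each, and every such fit kept SPAK KO arrays that agree closely. The other 6 were split in sign, Tsc22d3 (0.42, adjusted p = 0.0754), Zbtb16 (0.29) and Klf9 (0.22) above 0 and Fkbp5 (−0.14), Mt1 (−0.15) and Mt2 (−0.20) below. Of 12 immediate early genes, 6 rose, 0 fell and 6 did not pass (median 0.32). Egr1, Fos, Btg2 and Jun, which were named as those with the smallest p, rose by 0.91 ± 0.07, 0.73 ± 0.05, 0.46 ± 0.06 and 0.83 ± 0.12 (adjusted p = 5.6e-04, 5.6e-04, 0.0046 and 0.0085). Among the WT arrays, Fos (5.75, 5.86, 5.92 and 5.81 on WT 1 to 4) was lowest on WT 1 and highest on WT 3, as was Per1, while Egr1 (7.97, 7.90, 7.91 and 8.22) was highest on WT 4, and Jun (9.26, 8.77, 8.72 and 8.60) and Btg2 (7.18 on WT 1) were highest on WT 1. With arrays that agree counted once the differences were 0.88 for Egr1, 0.75 for Fos, 0.80 for Jun, 0.45 for Btg2, 0.72 for Dusp1, 0.56 for Sgk1 and 0.30 for Errfi1. That fit holds 1 SPAK KO sample and called 0 of all genes in limma (618 at an unadjusted p under 0.05), so it gives their size and no test of them. Markers of other cells also moved between the groups. Of 27 measured markers, 1 was called higher (Retn, a fat marker) and 3 lower (Pvalb, Aqp2 and Cd3e, of distal tubule, principal cells and T cells), beside 1.39% and 0.682% of all genes. The summed linear values of the 4 fat markers were 480 to 529 on WT and 545 to 584 on SPAK KO arrays. Most of that sum came from 1 gene, Fabp4 (log2 values of 8.56 to 8.71 on WT and 8.71 to 8.86 on SPAK KO arrays). Adipoq, the defining marker, lay between 4.17 and 4.84 on the log2 scale. The 3 adrenal markers summed to 81 to 102 on WT and 86 to 97 on SPAK KO arrays. Their part in the rise of Per1 was not tested.

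**Figure D5:**
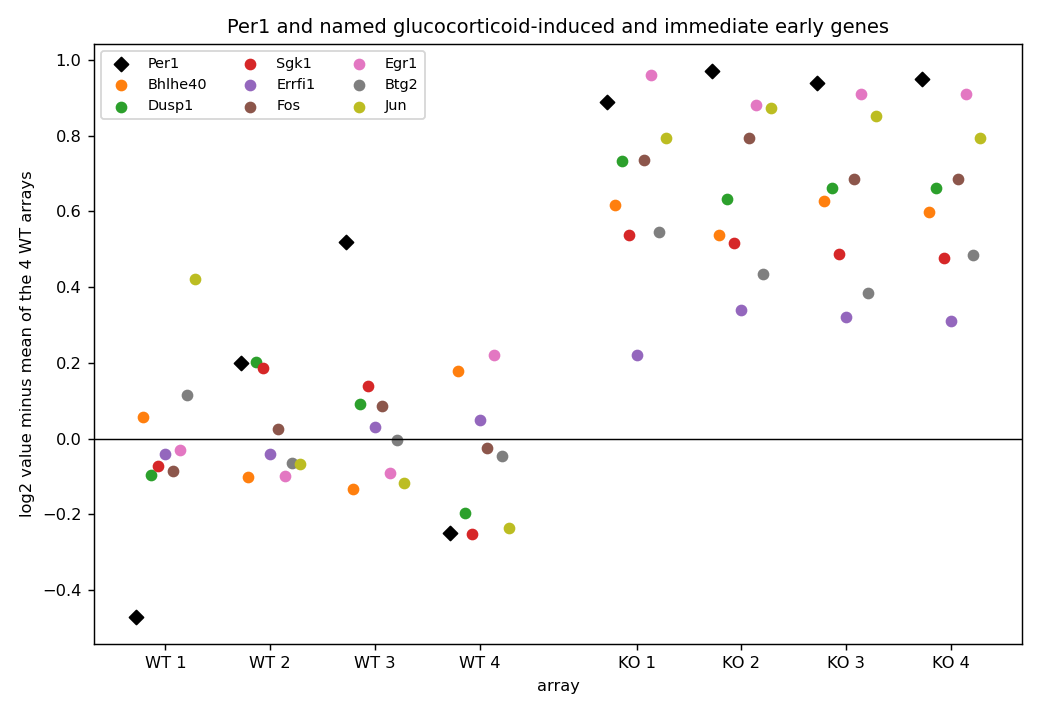
Log2 value minus the mean of the 4 WT arrays (y axis) on each array (x axis) for Per1 (black diamonds), Bhlhe40, and the named glucocorticoid-induced and immediate early genes. All 9 genes lie above their WT mean on every SPAK KO array, and Per1 has the widest spread among the WT arrays.

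Genes with the pattern most like that of a core clock gene were named for the 5 members that spanned at least 0.5 over the 8 arrays, by the smallest root mean square difference of centred log2 values. For Per1 these were Zfp36, which encodes an mRNA-decay protein (0.0974), Kynu, an enzyme of tryptophan breakdown (0.135), and Tmem252 (0.206). Zfp36 read 8.65, 9.24, 9.32 and 8.82 on WT 1 to 4 and 9.94 to 10.02 on the SPAK KO arrays. For Dbp they were Klf15, a transcription factor of amino acid and glucose metabolism (0.105), Ruvbl2 (0.118) and Pla2g7 (0.123). For Arntl they were Fcamr, an Fc receptor for IgA and IgM (0.0757), Rnf24 (0.0892) and Zfp810 (0.0960). Per2 and Per3 shared 2 of their 3 nearest genes, Nat8f2 (0.0462 and 0.0384) and 4921524J17Rik (0.0614 and 0.0528), with Nt5c2 (0.0662) the other for Per2 and Rhoq (0.0517) the other for Per3. Likeness here is over 8 arrays, of which the SPAK KO arrays are nearly alike, so it rests mostly on the WT arrays and on the step between genotypes.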

How the data were processed

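The authors deposited 1 table of log2 values, computed per the submitters' processing notes by RMA (background subtraction, normalization across arrays and summary per probe set) using Affymetrix Expression Console; no version or genome build is named in the labels. It covers 35556 probe sets on 8 arrays, none missing a value. The platform annotation named 21789 probe sets with a single symbol, 1621 with several and 12146 with none. Only single-symbol probe sets were used, the brightest on average for each of 19938 genes.

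Genotype was the sole term of a limma fit (version 3.58.1, R 4.3.3; lmFit and eBayes) across all genes and the 8 arrays. Calls required a Benjamini-Hochberg adjusted p under 0.05. Each difference subtracts WT from SPAK KO, with its moderated SE. The fit was tested on simulated data. The simulated arrays were drawn independently, so that test does not cover arrays that agree closely. Robust variance used statmod 1.5.0. The number of arrays limits precision.

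The members, phase groups, 6 lists and 29 markers of cell types were chosen with earlier results of these data known. Named were all members, up to 4 called genes of each list or else its 2 smallest p, and the 3 nearest patterns (mean at least 6). Any other gene was named after its values were seen. Promoter sequences and their coordinates are RefSeq's on GRCm38.p6.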

Additional observations from a re-analysis of the deposited data

Results flagged for a closer look

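Among 46 groups of 4 arrays (23 genes in 2 genotypes), 1 held an array set far apart from its group, where chance alone sets about 1 in 20 apart. This was Usp2 on SPAK KO 4, at 10.47, where the other SPAK KO arrays lay at 10.43 to 10.44. The distance is small beside the WT span of 0.46 for this gene.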

How the results depend on the processing

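The count of core clock genes called (1 of 9) became 2, with Nr1d1 added, with arrays centred on their median, with genes of a mean under 6 left out, and with trended, robust variance. It became 0 with arrays that agree counted once and lay between 0 and 1 when 1 array was left out. Of the 52 genes on the other lists, 10 were called, 0 with arrays that agree counted once, and 6 to 12 when 1 array was left out. Over all genes 414 were called (67.1% higher). There were 761 with median centring (673 higher, 88 lower, 88.4% higher), 664 without dim genes, 767 with trended, robust variance, 253 with WT 2 and WT 3 averaged, 156 to 625 when 1 array was left out, and 0 with arrays that agree counted once (618 at an unadjusted p under 0.05). The cause of these changes was not tested. Leaving out 1 array moved Arntl between −0.25 and 0.12, Per2 between −0.09 and 0.16 and Per3 between −0.10 and 0.14. Among 23 genes under 17 settings, 352 values kept direction and side of the threshold, 23 lost the call, 11 gained one and 4 turned, all 4 on leaving out WT 1 or WT 4. Equal replicate numbers did not pair the samples (correlations of deviations −0.050, 0.082, −0.129 and 0.133). With the replicate number as a block, 1 core clock gene, 8 list genes and 174 of all genes were called, and Errfi1 lost its call (adjusted p = 0.0581).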
